A study of Mus musculus with 9 samples.

Results

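The olfactory receptor genes numbered Olfr543 to Olfr692 were followed in the nasal mucosa of mice in an allergic rhinitis experiment. They were taken as every gene whose symbol is Olfr and a number, from Olfr543 to Olfr692, and that a probe set names alone, with pseudogene symbols left out. A probe set is the group of array probes that measures 1 transcript. This gave 108 genes on 109 probe sets, of 1015 numbered receptor genes and 19938 genes named in this way on the array. Olfr617 had 2 probe sets, and such a gene was read from the probe set whose mean over all arrays was higher. All 108 genes were found in the RefSeq gene table of assembly GRCm38.p6, and all 108 lie on chromosome 7. Another 10 probe sets that name a gene of this range together with others were left out, and 7 genes (Olfr560, Olfr583, Olfr584, Olfr596, Olfr612, Olfr681 and Olfr688) are represented only there.

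Olfactory receptors are G protein-coupled receptors that bind odorants in the cilia of olfactory sensory neurons, and each mature neuron transcribes 1 receptor gene from 1 allele. The receptors of this chromosome 7 cluster are mostly class I receptors, the class related to those of fish, which in mammals bind many short-chain acids and other hydrophilic odorants and are used mainly by neurons of the dorsal zone of the olfactory epithelium. A long-range enhancer within the cluster, the J element, acts on many of them, and the beta-globin genes lie among them. A bulk value for a receptor gene therefore reflects both how many neurons chose it and how much RNA each of them held, and in these samples fewer cells and less RNA per cell cannot be told apart.

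Gene expression was measured with 9 Affymetrix Mouse Gene 1.0 ST arrays of BALB/c mice, an inbred strain, in 3 groups of 3 arrays. Mice of the control group were given saline in both sensitisation and challenge. Mice of the OVA group were given ovalbumin, an egg white protein, in both, and tissue was collected 2 hours after their final challenge. Mice of the 4-week group had the same ovalbumin course, and tissue was collected 4 weeks after it ended. All 9 samples are labelled male, nasal mucosa and 6 to 8 weeks of age, so the labels do not separate the groups by age at collection. The comparisons ask how receptor transcripts stood shortly after the allergen, after an allergen-free period, and against saline.

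The deposited values are on a log2 scale, and a difference of 1 is 2-fold. Array medians over all 35556 rows lay between 5.95 and 6.05. No detection calls were used here, so it is unknown which low values are above background, and levels were not compared between probe sets. The arrays labelled control carried a female pattern: Xist, the RNA of the silenced X chromosome, read 10.62, 10.70 and 11.11 there and 4.22 to 4.42 on the other 6 arrays. Each difference from control is therefore also a difference between female-pattern and male-pattern arrays, and these cannot be told apart. Omp, a marker of mature olfactory neurons, read 11.47 to 12.43 on the 9 arrays, so olfactory neurons were represented in all samples. Whether the 3 arrays of a group came from separate animals is not in the labels, so the p-values reflect only how far these samples spread, and that spread may be technical. All p-values come from 1 limma fit over the 9 arrays, two-sided, with Benjamini-Hochberg adjustment over 23410 annotated probe sets, and a gene was called at an adjusted p under 0.05. The 3 comparisons share arrays, so their values are set side by side and were not correlated.

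Over the 9 arrays the 108 genes had means from 3.24 to 8.79, with a median of 6.67. The SD of a gene over the 9 arrays ran from 0.11 to 0.61, with a median of 0.32. These means are probe set signals and do not order the transcript levels of different genes. Olfr543, Olfr586, Olfr620, Olfr622, Olfr623 and Olfr672 are named below for their bright probe sets, and Olfr597, Olfr598 and Olfr631 for their dim ones. The arrays of the OVA group lay closest together, with a median SD within the group of 0.15 against 0.24 in the 4-week group and 0.33 in the control group.

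Taken from each gene's own mean over the 9 arrays, the receptors Olfr543 to Olfr692 had median deviations of 0.20, 0.13 and 0.24 on OVA replicates 1 to 3. On the 4-week replicates the median deviations were −0.18, −0.35 and 0.02, and on the control replicates −0.02, −0.33 and 0.25. All 3 OVA arrays thus lay above all 3 4-week arrays, while the control arrays spanned nearly the whole range of both. The number of the 108 genes above their own mean was 85, 90 and 98 on the OVA arrays, 26, 7 and 62 on the 4-week arrays, and 51, 10 and 99 on the control arrays. The lowest value of a gene fell on 4-week replicate 2 for 44 genes and on control replicate 2 for 41. The highest fell on control replicate 3 for 33 genes, on OVA replicate 1 for 26 and on OVA replicate 3 for 18.

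The same arrays ordered the other 907 numbered receptor genes differently. Their median deviations were 0.07, 0.20 and 0.28 on the control arrays, −0.11, 0.00 and −0.03 on the OVA arrays, and −0.05, −0.33 and −0.05 on the 4-week arrays. Control replicate 2 stood 0.20 above the mean for those receptors and 0.33 below it for Olfr543 to Olfr692. As a description over 9 arrays of one normalization, pairs among the 108 genes had a median Pearson r of 0.57, with 93.3% of 5778 pairs above 0. Pairs among the other receptors had a median of 0.38, and pairs of a gene of the range with a receptor outside it a median of 0.17. Each array shares its tissue composition and labelling across all genes, and no test was made of these values.

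**Figure D1:**
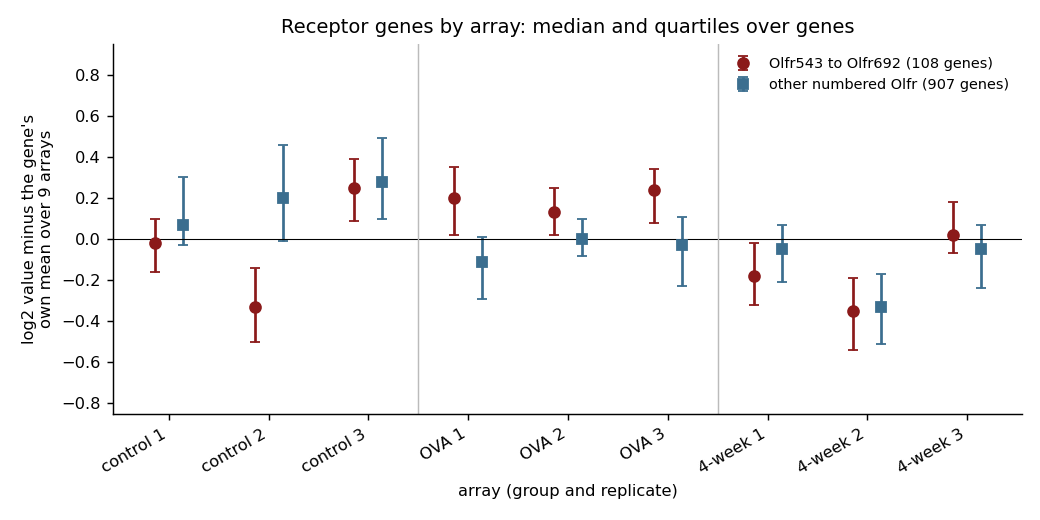
Median (points) and quartiles (bars) over genes of the log2 value minus the gene's own mean over the 9 arrays, for Olfr543 to Olfr692 (108 genes, circles) and the other numbered receptors (907 genes, squares), on the y axis, for each array on the x axis. The 108 genes sit at 0.13 to 0.24 on the 3 OVA arrays and at −0.35 to 0.02 on the 4-week arrays, and the widest gap between both sets is on control replicate 2.

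Between the OVA and control arrays no gene of Olfr543 to Olfr692 passed the limma test, although most stood above control. Of the 108 genes, 86 had a log2 change above 0 and 22 below. Their median was 0.24 and their middle range from 0.05 to 0.40, against a median of −0.02 over all annotated probe sets, of which 45.3% were above 0. At an unadjusted p under 0.05 there were 28 genes, 27 of them higher in OVA, and Olfr552 was the lower one. This is 25.9% of the range, against 16.4% of all probe sets at the same unadjusted p. On the whole array 0.782% of probe sets were called higher and 0.521% lower, so 0 of 108 is close to this background. The values of the 2 groups did not overlap for 19 genes with OVA higher (17.6%), against 10.4% of all probe sets. They did not overlap for 3 genes with OVA lower (2.78%), against 11.1%. These 3 were Olfr552, Olfr556 and Olfr642, the last named after its values were seen. The other 907 receptors went to the other side, with a median of −0.23, 701 below 0 and 48 called lower.

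The 4 genes with the smallest p in OVA against control were Olfr632, Olfr613, Olfr610 and Olfr655. Olfr632 read 7.35, 7.04 and 7.45 on the control arrays and 7.89, 7.93 and 7.96 on the OVA arrays. Its log2 difference of 0.64 (SE 0.13, n = 3 per group, limma adjusted p = 0.0574) missed the threshold, although all 3 OVA values lay above all control values. Its adjusted p fell below the threshold in the upper 60% of probe sets, with 1 probe set per gene, and with trended and robust variance. Olfr613 (0.47, limma adjusted p = 0.0908), Olfr610 (0.51, 0.112) and Olfr655 (0.71, 0.123) also did not overlap and did not pass. The largest difference was that of Olfr605, which read 5.78, 5.04 and 5.5 in control and 6.32, 5.88 and 6.54 in OVA (0.81, SE 0.25, limma adjusted p = 0.158). Olfr552 had the lowest difference, −0.69 (SE 0.19, limma adjusted p = 0.129).

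The level of the whole range against control rested on 1 control array at either end. Without control replicate 2 the median log2 change of OVA minus control over the 108 genes was 0.06, and without control replicate 3 it was 0.38. Leaving out any other array gave medians from 0.20 to 0.26.

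**Figure D2:**
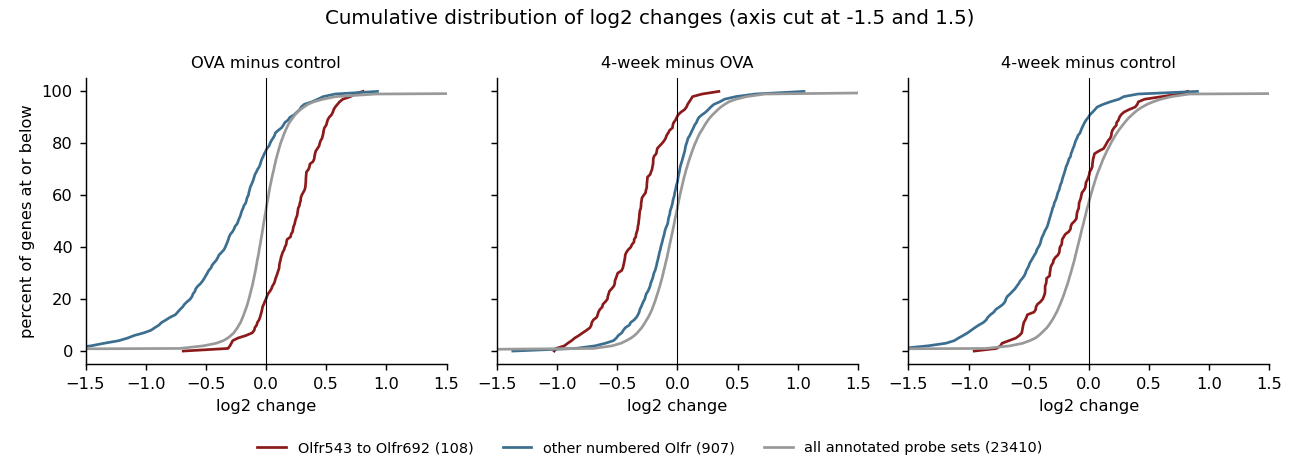
Cumulative percent of genes (y axis) at or below each log2 change (x axis) in the 3 comparisons, for Olfr543 to Olfr692 (108 genes), the other numbered receptors (907) and all 23410 annotated probe sets, with a vertical line at 0. In OVA minus control the 108 genes lie to the right of all probe sets (median 0.24) and the other receptors to the left (median −0.23), and in 4-week minus OVA the 108 genes lie farthest left (median −0.32).

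The 4-week and OVA arrays share the male pattern. Their tissue was collected at different times after the same course, and the labels do not say whether age or collection date differed too. Any such difference cannot be told apart from the allergen-free period. Of the 108 receptors, 10 fell from OVA to 4 weeks and 0 rose (9.26% called lower), and 98 did not pass. On the whole array 2.51% of probe sets were called lower and 3.81% higher. The log2 change was below 0 for 97 genes and above 0 for 11, with a median of −0.32 and a middle range from −0.53 to −0.19. Over all probe sets the median was −0.02 and 55.3% were below 0. For 49 genes (45.4%) every 4-week value lay under every OVA value, against 13.7% of all probe sets, and for 0 genes did every 4-week value lie above, against 14.5%. Among the other 907 receptors the median was −0.08, with 20 called lower. Receptor blocks outside the range had medians of −0.12 for the 100 genes from Olfr828 to Olfr980 and −0.04 for the 233 from Olfr987 to Olfr1318.

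The call with the smallest p was that of Olfr545, a neighbour of Olfr544. Olfr545 read 8.15, 8.06 and 8.23 on the OVA arrays, 7.19, 7.12 and 7.36 on the 4-week arrays, and 7.73, 7.57 and 8.15 on the control arrays. It fell by 0.92 on the log2 scale, a fold size of 1.89 (SE 0.14, n = 3 per group, limma adjusted p = 0.00925). The OVA and 4-week values lay far apart with no overlap, and the 4-week values also lay below all control values. Its call held whichever of the 9 arrays was left out, with adjusted p up to 0.0435.

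Olfr544, known as a receptor of azelaic acid and found also outside the nose, read 7.33, 6.85 and 6.72 in OVA, 6.0, 5.91 and 6.15 at 4 weeks, and 5.89, 6.13 and 6.65 in control. It fell from OVA to 4 weeks by 0.94 (SE 0.21, limma adjusted p = 0.0335), and the 4-week values lay within the span of the control values. Olfr543, the first gene of the range and next to Olfr544, read 9.69, 9.0 and 8.89 in OVA and 8.23, 8.33 and 8.67 at 4 weeks. Its change of −0.78 (limma adjusted p = 0.0918) did not pass, although the groups did not overlap. These 3 genes are the first along the chromosome, and OVA replicate 1 was the highest of the 9 arrays for Olfr543 and Olfr544 but not for Olfr545.

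Olfr649 had the largest change among the called genes. It read 8.11, 7.41 and 7.51 in OVA against 6.72, 6.46 and 6.80 at 4 weeks, and fell by 1.01, a fold size of 2.02 (SE 0.22, limma adjusted p = 0.0311). Control read 7.38, 6.80 and 7.44, and its lowest value was the same as the highest 4-week value to 2 decimals. Olfr685 read 6.40, 6.55 and 6.64 in OVA and 5.64, 5.44 and 5.85 at 4 weeks, and fell by 0.89 (SE 0.18, limma adjusted p = 0.0251). Its control values of 6.48, 5.97 and 6.68 also lay above all 4-week values.

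Olfr655 read 8.51, 7.98 and 8.14 in OVA and 7.52, 7.08 and 7.45 at 4 weeks, and fell by 0.86 (SE 0.19, limma adjusted p = 0.0364), with 7.67, 7.13 and 7.71 in control. Olfr632, with the 3 OVA values given above, read 7.0, 7.19 and 7.45 at 4 weeks and fell by 0.71 (SE 0.13, limma adjusted p = 0.0196). In both genes the OVA arrays stood above all other arrays, and the control and 4-week values overlapped. Olfr613 read 5.97, 6.09 and 6.10 in OVA, 5.39, 5.24 and 5.64 at 4 weeks and 5.64, 5.41 and 5.69 in control. It fell by 0.62 (SE 0.11, limma adjusted p = 0.0188), again with OVA above both other groups.

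Olfr610 read 8.31, 8.20 and 8.29 in OVA and 7.73, 7.63 and 7.74 at 4 weeks, with an SD of 0.06 in each, and fell by 0.57 (limma adjusted p = 0.0395). Olfr641 read 6.79, 6.88 and 7.0 in OVA and 6.41, 6.14 and 6.57 at 4 weeks, and fell by 0.52 (limma adjusted p = 0.0445). Olfr670, named after its values were seen, read 7.32, 6.94 and 7.30 in OVA and 6.79, 6.23 and 6.37 at 4 weeks, and fell by 0.72 (limma adjusted p = 0.0454). The groups did not overlap in any of these 3 genes, and their adjusted p lay nearest to the threshold.

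Each of these calls except that of Olfr545 was lost in some fits that left out 1 array. For Olfr544, Olfr641 and Olfr670 this included a control array, which enters this comparison only through the shared fit. Among the 9 fits that each left out 1 array, the call was lost in 3 for Olfr632 (adjusted p up to 0.0711), 4 for Olfr613 and Olfr685 (up to 0.0905), 6 for Olfr610, Olfr649 and Olfr655 (up to 0.123), 7 for Olfr544 and Olfr641 (up to 0.148) and 8 for Olfr670 (up to 0.149). The number of genes called lower was 4 without OVA replicate 1, 1 without OVA replicate 2 or 3, 3 without 4-week replicate 1, and 1 without 4-week replicate 2. The median change of the 108 genes stayed negative in the 9 fits, from −0.45 without 4-week replicate 3 to −0.24 without 4-week replicate 2.

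**Figure D3:**
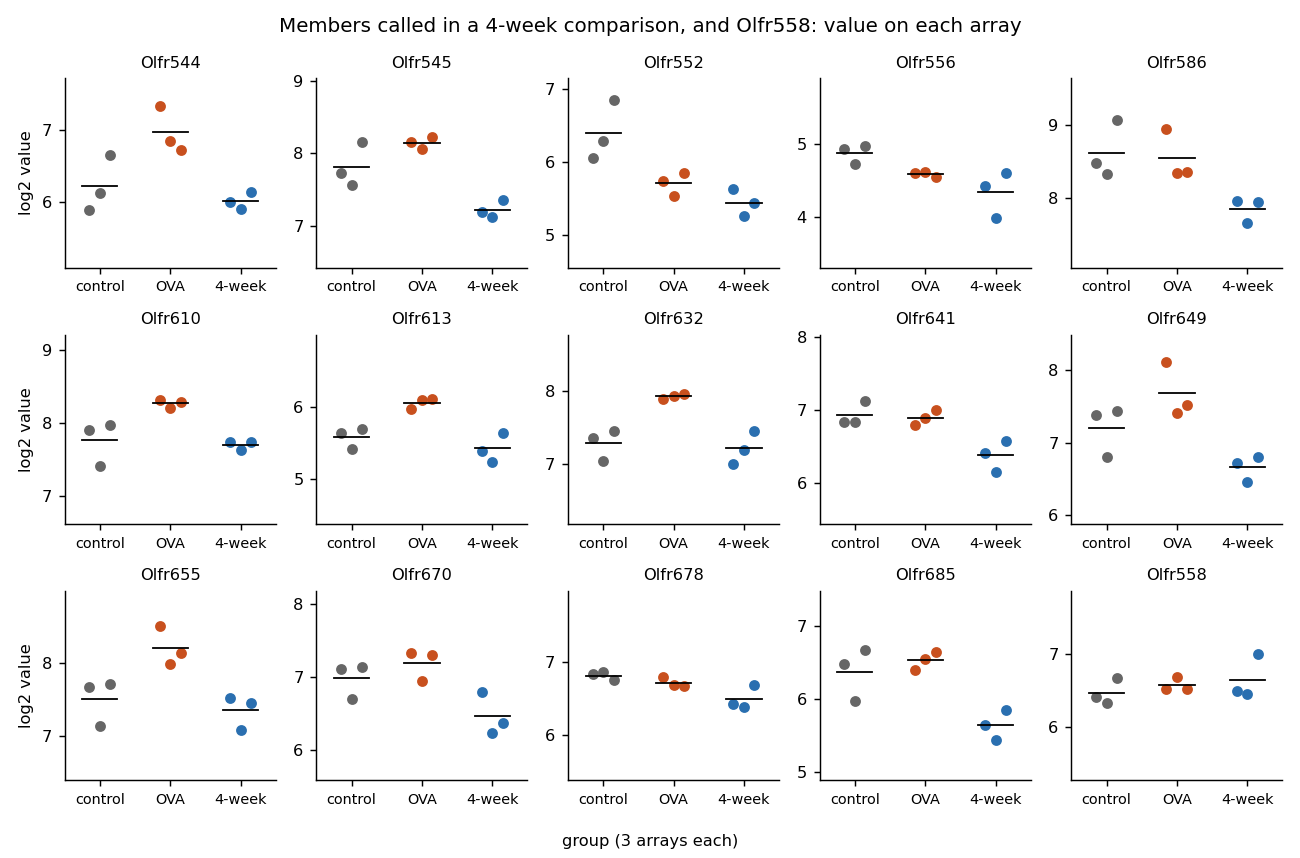
Log2 value (y axis) on each array by group (x axis; 3 arrays each, horizontal line at the group mean) for the 14 genes called in a comparison with the 4-week group, and for Olfr558, which was not called. Each panel is centred on the gene's own mean, and all panels span the same width. The 4-week points of Olfr545 and Olfr685 lie below all points of both other groups, those of Olfr632 and Olfr613 lie below OVA only, and Olfr558 shows no such step.

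Genes without a call included the most variable one. Olfr592 read 8.32, 8.46 and 8.56 in OVA and 7.48, 7.29 and 7.50 at 4 weeks, a change of −1.02 (SE 0.32, limma adjusted p = 0.0938). Its control values were 8.67, 7.24 and 8.56, so that control replicate 2 read like the 4-week arrays and the other two like OVA. In a fit of only the OVA and 4-week arrays the change of Olfr592 passed. Of the genes with bright probe sets, Olfr586 (−0.70), Olfr620 (−0.53) and Olfr672 (−0.65) had 4-week values that did not overlap OVA and did not pass, while Olfr622 (−0.10) and Olfr623 (0.12) overlapped. Olfr558, the counterpart of the human receptor OR51E1 that is also found outside the nose, read 6.53, 6.69 and 6.53 in OVA and 6.50, 6.45 and 7.0 at 4 weeks, a change of 0.07 (SE 0.15). Olfr589 had the most positive change, 0.34 (SE 0.29), with 5.0, 5.22 and 5.10 in OVA against 5.10, 5.10 and 6.15 at 4 weeks, where 4-week replicate 3 stood apart. Olfr597 and Olfr631, with dim probe sets, also had their highest value on 4-week replicate 3, at 4.06 and 4.03, against 2.90 to 3.48 and 3.25 to 3.45 on the other 8 arrays.

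Among other genes with ligands or sites of expression discussed in the field, Olfr691 (−0.44), Olfr653 (−0.42), Olfr569 (−0.31) and Olfr692 (−0.20) did not pass from OVA to 4 weeks, and the groups overlapped in all 4. Olfr692, the last gene of the range and known from the vomeronasal organ, read 6.51, 5.96 and 6.39 in control, 6.56, 6.78 and 6.69 in OVA, and 6.63, 6.21 and 6.58 at 4 weeks. Its OVA values lay above all control values (0.39, SE 0.16, limma adjusted p = 0.269) but overlapped the 4-week values.

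Against the control arrays, 7 of the 108 receptors were lower at 4 weeks and 0 higher (6.48% called lower), on an array where 6.45% of all probe sets were called lower and 7.92% higher. The share of calls in the range is thus at the background. The median change was −0.12 and the middle range from −0.36 to 0.04, with 73 genes below 0 and 35 above. Over all probe sets the median was −0.04 and 57.4% were below 0. All 4-week values lay under all control values for 10 genes (9.26%), against 18.4% of probe sets. All lay above for 2 genes (1.85%), against 16.6%: Olfr605 (0.76, limma adjusted p = 0.0686) and Olfr677 (0.63, limma adjusted p = 0.0541), the latter named after its values were seen. The other 907 receptors had a median of −0.33, with 199 called lower.

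Olfr552 had the largest change from control. It read 6.05, 6.28 and 6.85 in control, 5.73, 5.53 and 5.85 in OVA, and 5.63, 5.26 and 5.43 at 4 weeks. Its log2 change from control to 4 weeks was −0.95 (SE 0.19, n = 3 per group, limma adjusted p = 0.0148), and the OVA values too lay below all control values. Its call was lost in 1 of the 9 fits, without 4-week replicate 2 (adjusted p = 0.0563). Olfr556 had the same order of groups, with 4.93, 4.73 and 4.97 in control, 4.60, 4.62 and 4.55 in OVA, and 4.43, 3.99 and 4.60 at 4 weeks (−0.54, SE 0.14, limma adjusted p = 0.0371).

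Olfr545 (−0.59, limma adjusted p = 0.0264), Olfr685 (−0.73, limma adjusted p = 0.0282) and Olfr641 (−0.56, limma adjusted p = 0.0217) were lower at 4 weeks than in control. Of the 14 genes called in a comparison of the 4-week group, these 3 were called against both other groups. Both calls of each gene use the same 4-week arrays and are not independent. Olfr641 read 6.83, 6.83 and 7.12 in control, close to its OVA values. Olfr586 read 8.47, 8.33 and 9.06 in control, 8.95, 8.34 and 8.35 in OVA, and 7.95, 7.65 and 7.94 at 4 weeks (−0.77, SE 0.22, limma adjusted p = 0.0476). Olfr678 had a narrow spread, with 6.84, 6.86 and 6.75 in control and 6.43, 6.38 and 6.68 at 4 weeks (−0.32, SE 0.09, limma adjusted p = 0.0443). The calls of Olfr556, Olfr586 and Olfr678 were each lost in 8 of these 9 fits (adjusted p up to 0.14), that of Olfr685 in 4, and those of Olfr545 and Olfr641 in 2 each.

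The number called against control was 4 without control replicate 1 or 3, 12 without control replicate 2, 4 without OVA replicate 2 or 3, 3 without 4-week replicate 1 and 0 without 4-week replicate 2. Of the 4 calls, 1 was higher at 4 weeks without control replicate 1, and 2 were without control replicate 3. In a fit of the 4-week and control arrays alone, Olfr552 was the 1 gene called. The median change ran from −0.26 without control replicate 2 to −0.01 without control replicate 3.

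Along the chromosome the changes were spread over the whole cluster. When the 108 genes were cut by order into 4 stretches of 27 genes, the median change from OVA to 4 weeks was −0.31 for Olfr543 to Olfr577, −0.33 for Olfr578 to Olfr618, −0.33 for Olfr619 to Olfr655 and −0.36 for Olfr656 to Olfr692. The calls numbered 2, 2, 4 and 2. The medians of OVA minus control were 0.14, 0.33, 0.22 and 0.27, and those of 4-week minus control −0.24, −0.06, −0.17 and −0.08. The lowest median against control was thus in the first stretch, which held 3 of the 7 calls (Olfr545, Olfr552 and Olfr556).

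**Figure D4:**
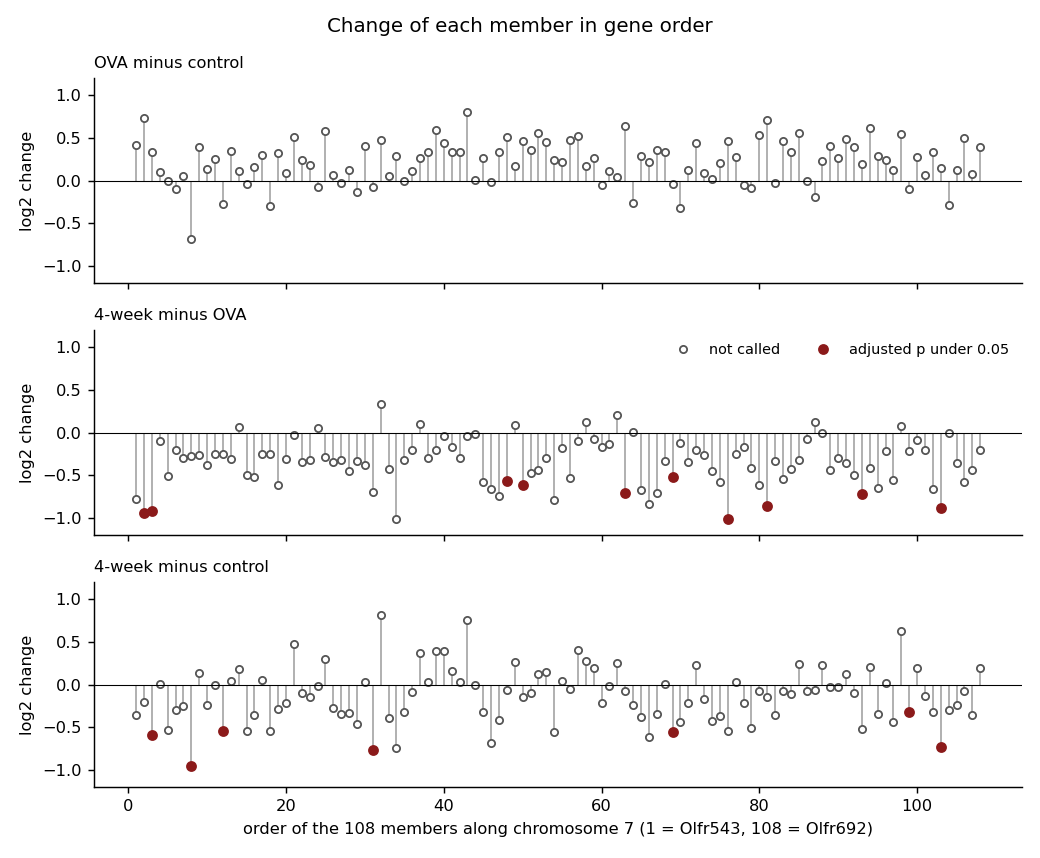
Log2 change (y axis) of each of the 108 genes in their order along chromosome 7 (x axis, 1 is Olfr543 and 108 is Olfr692) for the 3 comparisons, with filled points for genes at an adjusted p under 0.05. Points lie mostly above 0 in OVA minus control (86 of 108) and below 0 in 4-week minus OVA (97 of 108) in every stretch of the order.

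Genes of the same stretch of chromosome 7 that are no receptors did not show that pattern of medians. Of 27 such protein-coding neighbours in RefSeq, 18 had a probe set of their own, among them the embryonic globin genes Hbb-bh1 and Hbb-y, ubiquitin-specific proteases and TRIM genes. Their median changes were −0.10 from control to OVA, −0.08 from OVA to 4 weeks and −0.15 from control to 4 weeks. Some had dim probe sets, such as Hbb-bh1 (3.21 to 3.68) and Trim12a (2.87 to 3.31), and others did not, such as Trim68 (6.88 to 7.04). Whether the dim ones read above background is unknown, so a change there could be missed. From OVA to 4 weeks 0 of 18 were called by limma and 2 (11.1%) had an unadjusted p under 0.05, against 23.9% of all probe sets. Against control, Ubqlnl, a ubiquilin gene, fell in OVA (−0.55, limma adjusted p = 0.0241) and was lower at 4 weeks (−0.44, limma adjusted p = 0.0144), as was Usp17ld, a deubiquitinase (−1.43, limma adjusted p = 0.0224), while Trim12c was higher (0.48, limma adjusted p = 0.0349).

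The sequence before the gene start was looked at because the cluster's genes share regulators. RefSeq's promoter table for GRCm38.p6 held 92 of the 108 genes. For 69 of these the gene model begins at the ATG of the coding sequence, so that the bases before it need not be a promoter, and 23 begin elsewhere. In the 250 bases before the start, on both strands, the homeodomain motif TAATGA was present in 25% of the 92 genes, 25.4% of 852 other receptors and 8.59% of all 32851 promoters of the table. TAATTA, another homeodomain motif, which begins like TAATGA and can overlap it, was present in 14.1%, 18.5% and 4.84%. CCCNNGGG, the core of the site bound by Olf1/EBF factors, was present in 3.26%, 2.70% and 11.8%. The range thus held these motifs about as often as other receptors did.

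The 3 called genes whose models begin ahead of the coding sequence are printed here, since for them the window lies before an annotated transcript start. Each line gives the 250 bases before the start, 5′ to 3′ on the gene's strand, in GRCm38.p6. None of the 3 motifs was found in them, so no letters are in capitals. The windows are chr7:102488308-102488557 on the minus strand for Olfr544, chr7:102669651-102669900 on the plus strand for Olfr556 and chr7:103550118-103550367 on the plus strand for Olfr613.
Olfr544: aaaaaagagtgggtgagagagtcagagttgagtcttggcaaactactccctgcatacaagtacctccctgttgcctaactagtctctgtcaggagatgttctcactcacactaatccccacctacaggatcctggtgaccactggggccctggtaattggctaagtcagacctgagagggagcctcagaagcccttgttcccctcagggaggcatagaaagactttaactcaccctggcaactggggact
Olfr556: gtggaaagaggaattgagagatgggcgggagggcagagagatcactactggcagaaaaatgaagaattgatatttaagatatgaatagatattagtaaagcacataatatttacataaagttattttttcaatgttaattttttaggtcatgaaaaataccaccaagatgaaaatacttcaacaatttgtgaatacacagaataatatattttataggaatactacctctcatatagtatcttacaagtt
Olfr613: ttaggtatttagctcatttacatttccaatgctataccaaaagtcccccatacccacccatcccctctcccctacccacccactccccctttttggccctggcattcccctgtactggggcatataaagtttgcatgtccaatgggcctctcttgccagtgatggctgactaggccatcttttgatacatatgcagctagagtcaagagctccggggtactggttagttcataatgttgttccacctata
The window of Olfr556 is poor in G and C at 29.2%, against 51.6% for Olfr544 and 48.4% for Olfr613.

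The machinery downstream of these receptors was measured on the same arrays. Receptors couple through the G protein Golf (Gnal) to adenylyl cyclase 3 (Adcy3) and the cyclic nucleotide-gated channel (Cnga2, Cnga4, Cngb1). Of 15 transduction genes, 1 fell and 0 rose from OVA to 4 weeks: Slc24a4, the exchanger that clears calcium from cilia, read 9.63, 9.68 and 9.66 in OVA and 9.38, 8.88 and 8.93 at 4 weeks (−0.59, SE 0.13, limma adjusted p = 0.0344). Adcy3 (−0.20) and Cnga2 (0.19) did not pass. Against control, Slc24a4 (−0.92, limma adjusted p = 0.00453) and Gnal (−0.44, limma adjusted p = 0.0349) were lower at 4 weeks. From control to OVA 0 of 15 were called by limma and 4 (26.7%) had an unadjusted p under 0.05, against the 16.4% of all probe sets. The list's medians were −0.11 from control to OVA, −0.21 from OVA to 4 weeks and −0.30 from control to 4 weeks.

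Of 20 measured genes for receptor choice and trafficking, Atf5, a transcription factor of the feedback that fixes receptor choice, fell from OVA to 4 weeks (−0.50, limma adjusted p = 0.0477), and so did Ddit3, a stress-response transcription factor (−0.43, limma adjusted p = 0.0153). Ddit3 read 7.34, 7.46 and 7.48 in OVA against 6.97, 6.92 and 7.11 at 4 weeks and 7.12, 7.03 and 7.09 in control. Lhx2, a homeodomain factor needed for receptor expression, had a change of −0.50 and did not pass (limma adjusted p = 0.101). Against control, 5 were lower at 4 weeks: Ebf4 (−0.73), Bcl11b (−0.44), a factor that in olfactory neurons favours class II receptors, Lbr (−0.49), a nuclear envelope protein that olfactory neurons normally switch off, Atf5 (−0.61) and Rtp1 (−0.63), a chaperone that brings receptors to the membrane. From control to OVA 0 of 20 were called by limma and 4 (20%) had an unadjusted p under 0.05, against the same 16.4%.

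No zone marker was called beside the receptors. Of the 4 genes of the dorsal zone, where class I neurons mostly lie, 0 were called in any comparison by limma. In the order OVA against control, 4 weeks against OVA and 4 weeks against control, their medians were 0.03, −0.07 and 0.05, with 0, 1 and 1 genes at an unadjusted p under 0.05. Over all probe sets these shares were 16.4%, 23.9% and 32.9%. The 1 gene in the latter 2 was Acsm4, which read 11.57, 11.70 and 11.65 in OVA and 11.84, 11.84 and 12.03 at 4 weeks (0.27, limma adjusted p = 0.116), opposite in sign to the receptors. Nqo1, another dorsal gene, changed by −0.08 from OVA to 4 weeks and did not pass. The ventral genes Ncam2 and Nrp2 were not called either: Ncam2 had 7.89, 8.16 and 8.17 in control and 7.30, 7.56 and 7.06 in OVA (−0.77, limma adjusted p = 0.178), while Nrp2 had −0.10 (limma adjusted p = 0.853). From OVA to 4 weeks both ventral genes stood above 0, opposite in sign to the receptors and without passing, Ncam2 at 0.11 (limma adjusted p = 0.833) and Nrp2 at 0.50 (limma adjusted p = 0.203).

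Markers of neuronal stages were read beside the receptors. Of 10 mature olfactory neuron markers 0 were called from control to OVA or from OVA to 4 weeks by limma, with 4 and 2 at an unadjusted p under 0.05, and Gnal and Rtp1 were lower at 4 weeks than in control. The mean log2 level of the list was 10.42 to 10.79 on the control arrays, 10.29 to 10.49 on the OVA arrays and 10.15 to 10.61 on the 4-week arrays, so the groups overlapped. Of 11 markers of immature neurons and progenitors, 6 were higher in OVA than in control and 8 higher at 4 weeks, and Gng8 alone fell from OVA to 4 weeks (−0.48, limma adjusted p = 0.0391). Their mean level was 6.87 to 6.90 on the control arrays, 7.43 to 7.60 on the OVA arrays and 7.33 to 7.55 on the 4-week arrays. Sox11, of newly formed neurons, rose by 1.22 from control to OVA (limma adjusted p = 0.00171). Of 4 leukocyte markers 0 were called by limma in any comparison, with 2, 1 and 1 at an unadjusted p under 0.05. Control replicate 3, where the receptors Olfr543 to Olfr692 stood highest, had the lowest mean leukocyte level, 6.54 against 7.30 to 7.70 on the other 8 arrays. The other arrays did not follow this order. The OVA arrays, where the receptors also stood high, had leukocyte levels of 7.53 to 7.69. On 4-week replicate 2 and control replicate 2, where the receptors stood lowest, the levels were 7.48 and 7.30. The part of these cell markers in the receptor values was not tested.

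**Figure D5:**
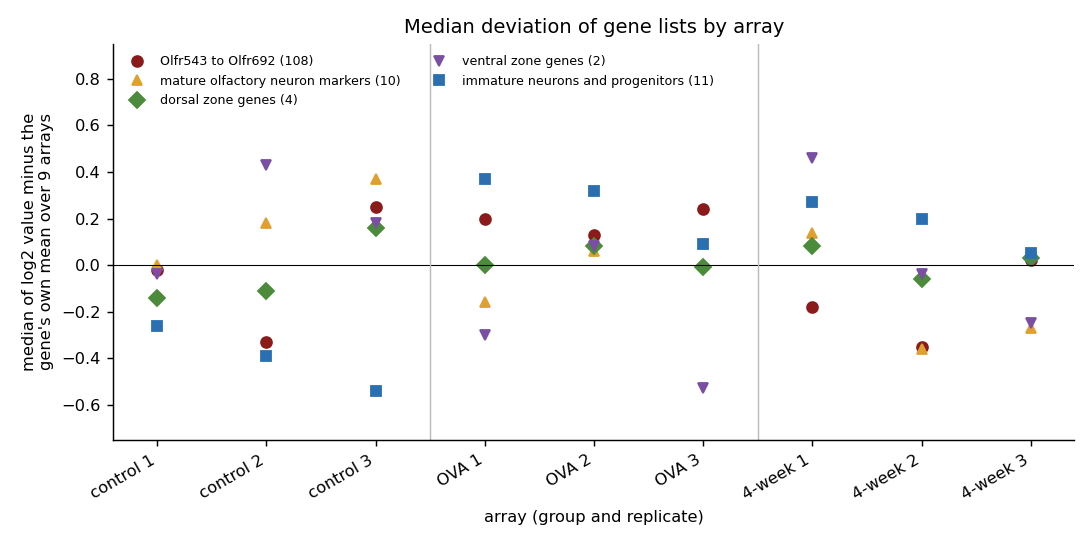
Median over genes of the log2 value minus the gene's own mean over the 9 arrays (y axis) on each array (x axis), for Olfr543 to Olfr692 (108 genes), mature olfactory neuron markers (10), immature neurons and progenitors (11) and dorsal (4) and ventral (2) zone genes. On OVA replicate 1 the 108 receptors lie at 0.20 and the mature markers at −0.16, and on control replicate 2 the receptors lie at −0.33 and the mature markers at 0.18, while on 4-week replicate 2 both lie low at −0.35 and −0.36.

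The gene with 2 probe sets and the shared probe sets gave a further reading. The second probe set of Olfr617 had changes of 0.46, −0.44 and 0.02 in the order of the comparisons, next to 0.45, −0.30 and 0.15 for the one used, and neither passed. The 10 probe sets that name several genes with at least 1 of the range had medians of 0.29, −0.24 and 0.04. All 10 stood above 0 in OVA minus control and all 10 below 0 in 4-week minus OVA, and 0 were called in any comparison by limma. Receptor genes of 1 cluster can be alike in sequence, and how far probes read a close relative is unknown here.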

How the data were processed

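Total RNA of nasal mucosa was isolated, amplified, labelled and hybridised, each sample to its own array, as the labels' protocols describe. The authors deposited log2 values for each probe set, computed with RMA according to the submitters' processing notes. The log2 scale was read from the values themselves, 1.63 to 13.83. RMA's version, the probe library and the genome build are not given in the sources. Gene names came from the platform's annotation of 2016: of 35556 rows, 21789 name 1 gene, 1621 several and 12146 none.

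A single model was fitted to the 9 arrays with limma 3.58.1 (lmFit, contrasts.fit and eBayes in R 4.3.3, with 6 residual and 2.98 prior degrees of freedom). It was run over 23410 annotated rows with no filter on low values. On simulated arrays with independent noise for each probe set it recovered 64% to 68% of 1.5-fold changes and 76% to 82% of 2-fold changes. Variation shared by the genes of an array was not simulated. A difference is a log2 change with its SE, and a fold size is 2 to that power. With 3 arrays in each group, precision is limited.

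The genes and lists were chosen with earlier results of these data known. Named genes were, per comparison, up to 8 higher and 8 lower called genes with the smallest p (the 4 smallest where fewer than 4 passed), the 6 highest and 3 lowest means, the 6 largest SDs, and Olfr544, Olfr545, Olfr558, Olfr569, Olfr653, Olfr691 and Olfr692. Alternatives were other scalings, filters, probe set rules, fits and leaving out each array. Protein sequences were not used here. Among the listed genes, Gfy, Cyp2a5, Trpc2, V1rb1, Hba-a1, Hbb-bs and Hbb-bt had no probe set of their own. Of the other lists, limma called 0 of 4 sustentacular, 0 of 6 respiratory and ciliated, 0 of 2 vomeronasal and 0 of 1 erythroid markers in any comparison, and 1 of 5 gland markers, Bpifb9a, lower in OVA than in control.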

Additional observations from a re-analysis of the deposited data

How the results depend on the processing

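The median change of the 108 genes kept its sign in each comparison under every alternative tried, but the set of genes called did not stay the same. Some alternatives also called genes higher that the main fit did not call in that comparison. The count of genes called in OVA minus control was 1 in place of 0 in the upper 60% of probe sets (80 of the 108 genes), with 1 probe set per gene, and with trended and robust variance, and 0 to 1 when an array was left out. The count for 4-week minus OVA ran from 1 to 12 when an array was left out. The count for 4-week minus control was 4 in place of 7 with every row tested, 1 in a fit of only the 2 groups, and 0 to 12 when an array was left out. Of these calls, 2 were higher without control replicate 3 and 1 without control replicate 1, against 0 in the main fit. Median centring, the upper 60% of probe sets, and trended and robust variance each also gave 1 higher call. The replicate numbers were not taken to pair arrays, since nothing in the labels says that a number marks a shared animal, batch or day. Same-numbered arrays of different groups deviated together at r = −0.04 to 0.33, over 0.1 in 5 of 9 pairs. Differently numbered arrays did so at −0.36 to 0.27, over 0.1 in 3 of 18 pairs. Of 18 checks of an array against another group, 11 were highest for the own number. Whether the numbers mark pairs was not tested. With the replicate number as a block the counts were 2, 19 (9 of the 10 among them) and 19 (3 of them higher). Over all alternatives the median of the 108 genes ran from 0.06 to 0.38 in OVA minus control. It ran from −0.45 to −0.24 in 4-week minus OVA and from −0.26 to −0.01 in 4-week minus control. Quantile normalization, centring and the filters left the sign of these medians. Of 1545 values of named genes under alternatives, 1433 stayed on their side of the threshold, 98 no longer passed and 14 newly passed. Most of the 1545 belong to genes and comparisons that were not called in the main fit. The 98 all come from its calls, so the 1433 do not measure how stable the calls were. With 3 arrays per group and no detection calls, small changes, and genes with dim probe sets such as Olfr597, cannot be told from background.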
